A study of Mus musculus with 20 samples.

Results

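Solute carriers are membrane proteins that move sugars, amino acids, ions, metals, vitamins and metabolites across cell and organelle membranes, and the digit after Slc gives the family. In the kidney tubule they recover filtered solutes from the urine, most of them in the proximal tubule, and set the salt and acid balance further along the nephron. The probe sets described here are those that the array annotation maps to 1 gene named Slc and a digit and whose mean intensity over 20 kidney arrays was 100 or more, so that they were chosen by brightness and name. The organic ion carriers of family Slc22a and 7 genes (Slc34a1, Slc20a1, Slc25a20, Slc37a4, Slc2a2, Slc2a5 and Slc4a1) were left out by name, a choice made with results of these arrays known. The rule gave 128 probe sets of 113 genes, out of 185 probe sets of 151 genes with such names and 10833 probe sets of 8251 genes on the array that name a single gene. A further 40 probe sets of 35 genes met the name rule but had a mean under 100. Just under that minimum lay probe sets of Slc6a2 (94.6), Slc25a53 (96.3) and Slc12a5 (98.5), and just above it those of Slc10a1 (105), Slc16a8 (105) and Slc25a3 (108).

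The study asked how the kidney of normal mice and of Hyp mice responds to a diet low in phosphate. Hyp mice carry a mutation of Phex, lose phosphate in the urine and serve as a model of X-linked hypophosphatemia. All mice were C57BL/6J, and every array was hybridised with total kidney RNA pooled from 3 mice, so that p-values measure the spread between pools. Crossing the genotypes, normal and Hyp, with the diets, control and low phosphate, gave 4 groups of 5 arrays. In every group 2 arrays came from males fed for 5 days and 1 each from females fed for 5 days, males fed for 3 days and females fed for 3 days. The arrays are numbered 01 to 20 in their titles and fall into 6 runs of numbers, here called array sets. Sets 01 to 04, 05 to 08, 11 to 14 and 15 to 18 hold 1 array of each group, set 09 and 10 holds Hyp mice only, and set 19 and 20 holds normal mice only. The age of the mice is not given in the labels.

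Values are linear signal intensities, brought by the authors to 1 trimmed mean across arrays. A difference is given on the log2 scale of intensity plus 38 with its standard error (SE), from a limma fit over 8695 probe sets with sex and days as terms, and a probe set counts as changed where the Benjamini-Hochberg adjusted p is under 0.05. All 128 solute carrier probe sets were bright enough to be tested. The 4 arrays of set 05 to 08, all from females at 5 days, stood apart. Their median rank correlation with the other arrays was 0.895 to 0.934 against 0.943 to 0.969 for the other 16, and the ratio of the 3' to the 5' actin control was 1.74 to 2.61 against 1.22 to 1.98 over the other sets, ranges that overlap. Among kidney markers, the mean intensity was 19710 for Miox of the proximal tubule and 10070 for Umod of the thick ascending limb. Of 3 measured podocyte markers, Synpo (347.1) and Wt1 (162.6) were tested, and Podxl (36.8) was too dim to be tested. In whole kidney RNA, fewer cells of a type and less RNA per cell cannot be told apart.

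Over the 20 arrays, the brightest probe sets in their families were those of Slc27a2, a very long chain fatty acid carrier and activating enzyme (mean intensity 9771), Slc12a1, the sodium-potassium-chloride cotransporter of the thick ascending limb (8661), Slc25a4, the mitochondrial ADP/ATP exchanger (7500), and Slc6a6, the taurine carrier (4512). Across arrays, Slc12a1 ran from 7145.7 to 11292.7 with a median of 8603, Slc27a2 from 7495.5 to 11668.7 with a median of 9967, and Slc25a4 from 5449.2 to 9008.3 with a median of 7591. None of these 3 passed the test for diet or genotype. Their averaged genotype differences were 0.04 ± 0.08 (SE; adjusted p = 0.85) for Slc12a1, -0.00 ± 0.10 (adjusted p = 0.99) for Slc27a2 and -0.05 ± 0.08 (adjusted p = 0.77) for Slc25a4. In a split of each probe set's variance, sex and days took a median of 37.2% over the 128 members, the 4 groups 15.4% and the remainder 43.6%. Over all 8695 tested probe sets the same medians were 38.3%, 11.2% and 45.2%. The shares are not corrected for the number of terms fitted. The share of sex and days cannot be told apart from that of array set.

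Genotype moved 3 solute carriers when averaged over diets, the ion carriers Slc26a1 and Slc4a4, lower in Hyp kidney, and Slc12a3, higher. Among the genes left out by name, Slc37a4 (-0.53, adjusted p = 0.00043), Slc2a2 (-0.34, adjusted p = 0.012) and Slc4a1 (0.35, adjusted p = 0.043) passed in the same comparison, so the kinds of solute among the called members depend on that choice. The 3 called are 2.34% of the 128 members, where 1.28% of all tested probe sets passed in this comparison (111 of 8695). Of all probe sets 0.771% passed as higher and 0.506% as lower in Hyp mice. A single member, Slc26a1, also passed on the low phosphate diet alone, where 0.357% of all probe sets did. On the control diet 0 of 128 passed in limma, against 0.253% of all probe sets, and an unadjusted p under 0.05 was found for 13 members (10.2%) and for 8.55% of all probe sets. The median averaged difference was -0.02 over the members and 0.02 over all tested probe sets.

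Slc26a1 encodes an exchanger of sulfate, oxalate and bicarbonate in the basolateral membrane of the proximal tubule. On control diet its intensity was 929.5, 829.5, 911.4, 684.7 and 793.8 on the normal arrays (01, 05, 11, 15 and 19) and 571.5, 520.7, 589.7, 791.8 and 416.4 on the Hyp arrays (03, 07, 09, 13 and 17). On low phosphate diet it was 840.9, 704.4, 1139.3, 645.9 and 698.0 on the normal arrays (02, 06, 12, 16 and 20) and 411.9, 398.2, 480.9, 590.0 and 460.7 on the Hyp arrays (04, 08, 10, 14 and 18). On low phosphate diet every Hyp array lay below every normal array, whereas on control diet 1 Hyp array, from males at 3 days, lay within the normal range. The means were 829.8 ± 98.7 (SD, n = 5) in normal and 578 ± 137 in Hyp mice on control diet, and 805.7 ± 199.95 and 468.3 ± 76.0 on low phosphate diet. The Hyp mean was thus 0.7 times the normal mean on control diet and 0.58 times it on low phosphate diet.

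Slc26a1 fell in Hyp mice by 0.62 on the log2 scale averaged over diets (SE 0.08, adjusted p = 0.00028) and by 0.72 on low phosphate diet (SE 0.11, adjusted p = 0.0031). On control diet the difference was -0.51 ± 0.11 with an adjusted p of 0.065, so it missed the threshold. Within the 4 array sets that hold all groups, the averaged difference was -0.82, -0.70, -0.55 and -0.56, and the Hyp array was the lower one in 8 of 8 pairs of the same diet and set. The averaged call held in each alternative tried, and the low phosphate call was lost without the terms for sex and days (-0.72 ± 0.17, adjusted p = 0.18). The diet difference of Slc26a1 in Hyp mice was -0.27 ± 0.11 (adjusted p = 0.998). Of 7 measured proximal tubule markers 0 passed for genotype averaged over diets, with a median difference of -0.06. Their summed intensity ran from 77400 to 82860 in normal mice on control diet, 83770 to 91210 on low phosphate diet, 76110 to 86970 in Hyp mice on control diet and 71670 to 90260 on low phosphate diet, and its part in the Slc26a1 difference was not tested.

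RefSeq (GRCm38.p6) gives Slc26a1 a pair of start sites on the minus strand, and the 250 bases before each are shown because this is the member with the steadiest genotype difference. These windows are chr5:108675366-108675615 (site 1) and chr5:108674797-108675046 (site 2). Capitals mark matches, on either strand, to 6 short motifs searched by their letters and their reverse complements. These were the TATA box as TATAAA, the CCAAT box by its own letters, the GC box as GGGCGG, the nuclear receptor half-site as AGGTCA, the HNF1 half-site as GTTAAT and the E-box as CACGTG.
Slc26a1 site 1: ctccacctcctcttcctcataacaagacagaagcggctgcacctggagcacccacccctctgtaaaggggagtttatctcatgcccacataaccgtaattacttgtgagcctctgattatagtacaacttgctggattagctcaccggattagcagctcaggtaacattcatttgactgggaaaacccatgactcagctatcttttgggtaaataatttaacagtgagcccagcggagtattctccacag
Slc26a1 site 2: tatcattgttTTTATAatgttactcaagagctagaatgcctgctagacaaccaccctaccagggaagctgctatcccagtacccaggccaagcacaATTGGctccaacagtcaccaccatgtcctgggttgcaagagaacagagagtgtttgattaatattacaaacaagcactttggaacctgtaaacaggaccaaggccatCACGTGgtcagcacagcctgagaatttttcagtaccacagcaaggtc
Site 1 held none of the 6. Site 2 held a reversed TATA box at -240, a reversed CCAAT box at -154 and an E-box at -47 from the start. Among all 32851 promoters of the table the TATA box occurred in 12.4%, the CCAAT box in 33.8%, the GC box in 32.7%, the nuclear receptor half-site in 14%, the HNF1 half-site in 6.43% and the E-box in 6.02%. The match is one of letters only.

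Slc4a4 encodes the electrogenic sodium bicarbonate cotransporter, which takes bicarbonate out of the proximal tubule cell into the blood. On control diet its intensity was 3354.9, 3319.7, 6023.2, 3992.7 and 2594.8 in normal and 2678.8, 3681.6, 2188.0, 3879.8 and 3344.8 in Hyp mice, in the array order given for Slc26a1. The low phosphate arrays read 3124.4, 3294.8, 6048.4, 3661.8 and 3747.4 in normal and 2183.4, 2627.5, 1922.1, 4116.9 and 2595.8 in Hyp mice. The ranges overlapped on both diets, and the male arrays at 3 days were the highest of their group in all 4 groups. The group means were 3857 ± 1310 (SD, n = 5) and 3155 ± 707 on control diet and 3975 ± 1190 and 2689 ± 851 on low phosphate diet, normal before Hyp.

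Averaged over diets, Slc4a4 fell in Hyp mice by 0.41 (SE 0.09, adjusted p = 0.025), and within the array sets the difference was -0.42, -0.09, -0.59 and -0.37. On low phosphate diet the difference was -0.56 ± 0.12 (adjusted p = 0.069), with the Hyp array lower in 4 of 4 sets. The averaged call was lost when any 1 of arrays 01, 02, 10, 11, 12, 13 or 15 was left out (adjusted p between 0.011 and 0.059 over the 20 fits) and when array set was a block (-0.37 ± 0.09, adjusted p = 0.083). It was also lost without the terms for sex and days (adjusted p = 0.71) and without arrays 09, 10, 19 and 20 (-0.37 ± 0.08, adjusted p = 0.071). RefSeq gives Slc4a4 a pair of start sites, and the second (chr5:89027716-89027965, plus strand) is shown for comparison with Slc26a1, since both proteins sit in the same membrane of the same cell.
Slc4a4 site 2: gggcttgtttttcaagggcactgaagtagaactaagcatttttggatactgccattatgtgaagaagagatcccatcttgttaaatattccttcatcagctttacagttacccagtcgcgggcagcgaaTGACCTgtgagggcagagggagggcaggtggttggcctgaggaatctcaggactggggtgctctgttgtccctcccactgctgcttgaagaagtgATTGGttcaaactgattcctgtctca
It held a reversed nuclear receptor half-site at -121 and a reversed CCAAT box at -26. Site 1 held a reversed GC box at -115.

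Slc12a3 encodes the thiazide-sensitive sodium chloride cotransporter of the distal convoluted tubule. On control diet its intensity was 4635.4, 4518.1, 5716.9, 5538.0 and 4957.8 in normal and 7165.1, 5018.0, 5941.0, 7792.9 and 7913.4 in Hyp mice. The low phosphate arrays read 4775.4, 4489.4, 4494.8, 5295.5 and 5724.3 in normal and 6342.3, 5001.8, 5318.9, 6433.4 and 6885.6 in Hyp mice. The lowest Hyp array on either diet was that of set 05 to 08, and the other 4 Hyp arrays on control diet lay above every normal array. The means were 5073 ± 535 (SD, n = 5) and 6766 ± 1250 on control diet and 4956 ± 541 and 5996 ± 798 on low phosphate diet.

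Averaged over diets, Slc12a3 rose in Hyp mice by 0.33 (SE 0.07, adjusted p = 0.034). The Hyp array was the higher one in 8 of 8 pairs, and the difference within sets was 0.52, 0.15, 0.48 and 0.44. On either diet alone it did not pass (0.40 ± 0.11 with an adjusted p of 0.23 on control and 0.27 ± 0.11 with 0.45 on low phosphate diet). The averaged call was lost when any 1 of 13 arrays was left out (01, 02, 03, 04, 08 and 12 to 19), without arrays 05 to 08 (0.38 ± 0.08, adjusted p = 0.058), without the intensity filter (0.053) and without the terms for sex and days (0.31). With array set as the block it held (0.40 ± 0.07, adjusted p = 0.017). Of 5 measured markers of the thick ascending limb and distal tubule, the potassium channel Kcnj1 rose by 0.33 (adjusted p = 0.024). The calcium-binding protein Calb1 had an averaged difference of -0.71 (adjusted p = 6.4e-05). It was at -0.15 on control diet (adjusted p = 0.71) and at -1.28 on low phosphate diet (adjusted p = 2.5e-06), with an interaction of -1.13 (adjusted p = 0.0028). Pvalb (-0.03, adjusted p = 0.93), Umod (0.02, adjusted p = 0.93) and Egf (-0.12, adjusted p = 0.42) did not pass averaged over diets. Egf and Umod were the brightest of the 5, with mean intensities of 16040 and 10070. The summed intensity of the 5 ran from 28980 to 35850 in normal mice on control diet, 32650 to 44210 on low phosphate diet, 29670 to 40510 in Hyp mice on control diet and 28660 to 33950 on low phosphate diet, and their part in the Slc12a3 difference was not tested.

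The promoter of Slc12a3 (chr8:94328958-94329207, plus strand) is shown because it holds, unlike the other windows printed here, a TATA box close to the start.
Slc12a3: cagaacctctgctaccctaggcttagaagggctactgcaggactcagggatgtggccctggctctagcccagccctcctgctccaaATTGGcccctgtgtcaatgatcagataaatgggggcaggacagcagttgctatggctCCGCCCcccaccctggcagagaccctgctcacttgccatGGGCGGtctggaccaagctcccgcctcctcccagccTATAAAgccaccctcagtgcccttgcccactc
The TATA box lay at -32, GC boxes at -68 and, reversed, at -107, and a reversed CCAAT box at -164.

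**Figure D1:**
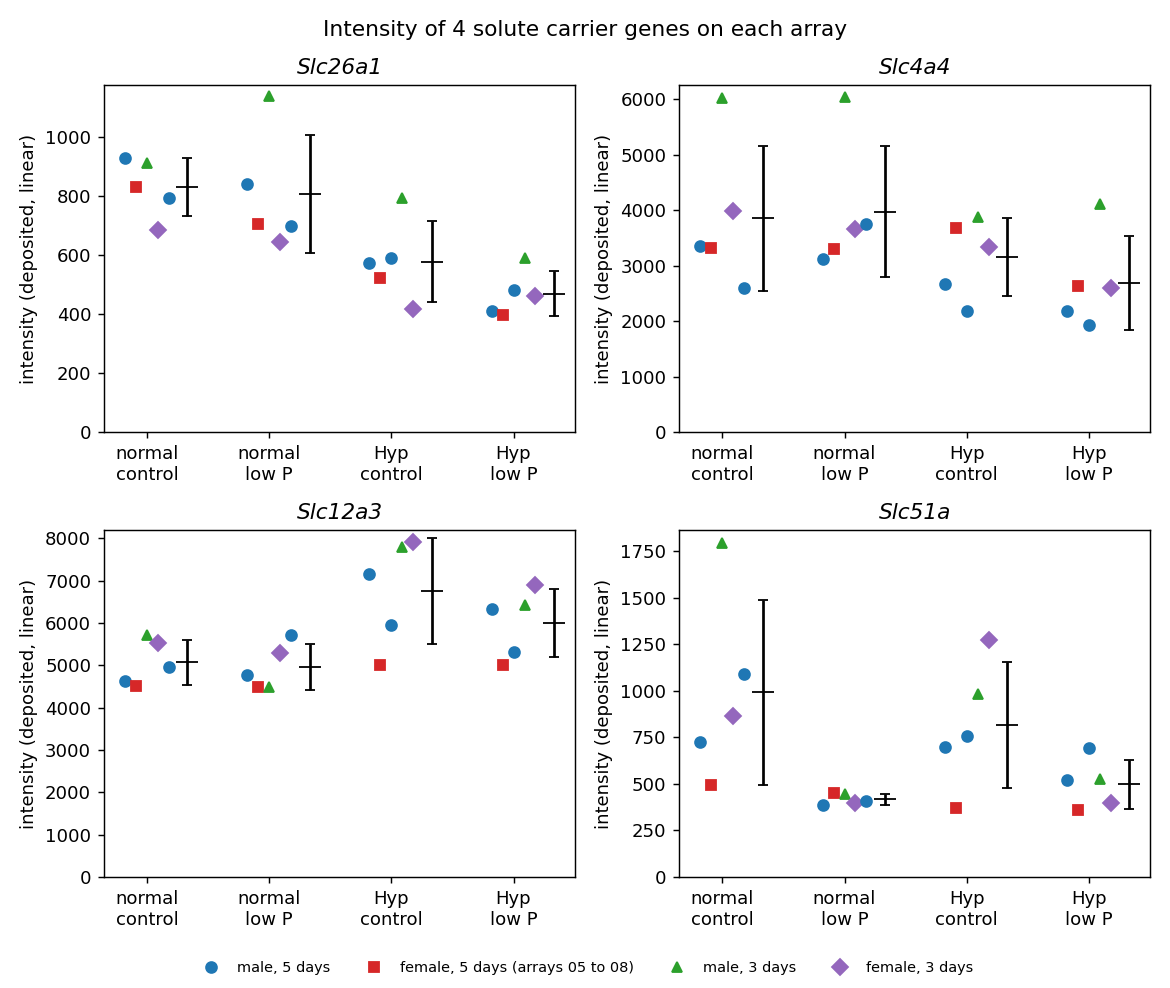
Deposited intensity (linear axis from 0) of Slc26a1, Slc4a4, Slc12a3 and Slc51a on each of the 20 arrays, by group, with marker shape for sex and days and a bar for the mean ± SD of 5 arrays. On low phosphate diet all 5 Hyp arrays of Slc26a1 lie below the normal ones, and for Slc51a all 5 normal low phosphate arrays lie at 387.4 to 452.8, below every normal control array.

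Other members of the ion carrier families gave values without a call. Slc4a3, an anion exchanger, had an averaged genotype difference of 0.22 ± 0.06 (adjusted p = 0.12). Its normal control arrays read 368.1, 366.6, 346.1, 284.0 and 360.8 and its Hyp control arrays 430.3, 424.8, 420.1, 436.6 and 401.8, so that these groups did not overlap, yet the difference on control diet was 0.27 ± 0.09 with an adjusted p of 0.38. Across the 14 genes of the sodium, potassium, chloride, bicarbonate and proton families, 7 of 14 averaged genotype differences were positive and the median was -0.00. Slc9a3r1, the scaffold NHERF1 that binds phosphate and proton carriers in the brush border, had -0.03 ± 0.07 (adjusted p = 0.89). A list of proteins that work with renal carriers, from pump subunits and potassium channels to regulators and endocytic receptors, had 17 measured genes. Of these 2 rose in Hyp mice averaged over diets (Kcnj1, and Emb by 0.32 with an adjusted p of 0.036) and 0 fell, where 0.771% of all probe sets passed as higher and 0.506% as lower.

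The diet moved 1 of the 128 members, Slc51a, which fell on low phosphate when averaged over genotypes. That is 0.781% of the members, against 0.472% of all tested probe sets (41 of 8695). Among the genes left out by name, Slc2a2 (0.39, adjusted p = 0.0074) and Slc22a6 (-0.48, adjusted p = 0.0075) passed in the same comparison. Diet in normal mice gave 0 of 128 members in limma against 0.184% of all probe sets, with 16 members and 8.56% of all at an unadjusted p under 0.05. Diet in Hyp mice gave 0 of 128 in limma against 0.15% of all, with 7 members and 4.59% of all at an unadjusted p under 0.05. The left-out Slc2a2 passed in Hyp mice (0.52, adjusted p = 0.025). The median averaged diet difference was 0.004 over the members and 0.009 over all tested probe sets.

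Slc51a encodes the alpha subunit of the organic solute transporter, which exports bile acids and steroid conjugates across the basolateral membrane of ileum, liver and kidney cells. In normal mice its intensity was 725.3, 491.8, 1791.3, 862.1 and 1089.2 on control diet and 387.4, 452.8, 445.1, 396.6 and 407.3 on low phosphate diet. In Hyp mice it was 696.1, 371.0, 758.3, 980.2 and 1273.4 on control diet and 518.7, 359.4, 693.9, 525.1 and 396.1 on low phosphate diet. The groups did not overlap in normal mice and overlapped in Hyp mice, and the low phosphate array was the lower one in 10 of 10 pairs of the same genotype and set. The control arrays varied widely (991.9 ± 497 and 815.8 ± 336, SD, n = 5), whereas the low phosphate arrays of normal mice were close together (417.8 ± 29.4); those of Hyp mice had a mean of 498.6 ± 131.

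Averaged over genotypes, Slc51a fell by 0.83 (SE 0.17, adjusted p = 0.034). The difference was -1.05 ± 0.24 in normal mice (adjusted p = 0.091) and -0.60 ± 0.24 in Hyp mice (adjusted p = 0.998), with an interaction of 0.45 ± 0.34 (adjusted p = 1.0). Within the array sets the averaged difference was -0.62, -0.08, -1.39 and -1.32, smallest in set 05 to 08. Without that set it was -1.02 ± 0.16 (adjusted p = 0.018). The call was lost when any 1 of 14 arrays was left out (adjusted p between 0.0091 and 0.086 over the 20 fits), without the intensity filter (adjusted p = 0.054), without the terms for sex and days (adjusted p = 0.19) and without arrays 09, 10, 19 and 20 (adjusted p = 0.096).

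The promoter of Slc51a (chr16:32487880-32488129, minus strand) is shown because the E-box, present in 6.02% of all promoters, occurred in it 3 times.
Slc51a: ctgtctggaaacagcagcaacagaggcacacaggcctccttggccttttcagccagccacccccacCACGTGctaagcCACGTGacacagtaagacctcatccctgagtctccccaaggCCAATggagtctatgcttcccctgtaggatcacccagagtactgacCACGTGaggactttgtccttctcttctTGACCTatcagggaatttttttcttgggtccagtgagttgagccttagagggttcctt
The copies lay at -184, -172 and -85, with a CCAAT box at -131 and a reversed nuclear receptor half-site at -58. A match of letters does not show that a factor binds there.

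The taurine carrier Slc6a6 and the fatty acid carrier Slc27a1 had positive diet differences, and passed under some of the alternatives only. For Slc6a6 the brighter of 2 probe sets read 4262.2, 5063.1, 3363.5, 3416.2 and 2967.1 in normal mice on control and 5138.9, 7811.6, 4308.5, 4997.4 and 4650.9 on low phosphate diet. In Hyp mice it read 4312.9, 4733.9, 4345.7, 3693.4 and 4120.3 on control and 4502.8, 6153.0, 4470.2, 4011.1 and 3921.8 on low phosphate diet. The low phosphate array was higher in 5 of 5 sets in normal mice and in 4 of 5 in Hyp mice, with overlapping group ranges in both.

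The difference of Slc6a6 in normal mice was 0.49 ± 0.11 with an adjusted p of 0.091. Fitted with array set, in place of sex and days, as a block it was 0.49 ± 0.09 (adjusted p = 0.020), in a fit that called 0.667% of all probe sets. Averaged over genotypes the value was 0.30 ± 0.08 (adjusted p = 0.13), and with the block it was 0.30 ± 0.06 (adjusted p = 0.032). It also passed in normal mice with trended and robust moderation (0.49 ± 0.10, adjusted p = 0.029). The dimmer probe set gave 0.68 in normal mice with an adjusted p of 0.56.

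Slc27a1 encodes the fatty acid transport protein FATP1. It was singled out after its values were seen. In normal mice its probe set read 93.0, 55.1, 376.0, 344.2 and 208.7 on control diet and 259.6, 215.8, 817.0, 601.9 and 606.6 on low phosphate diet. In Hyp mice it read 186.1, 118.7, 57.9, 493.7 and 475.9 on control diet and 270.7, 167.4, 59.2, 707.8 and 800.9 on low phosphate diet. The group ranges overlapped widely and the sets differed among themselves, but the low phosphate array was the higher one in 10 of 10 pairs of the same genotype and set. The group means were 215.4 ± 144 and 500.2 ± 255 (SD, n = 5) in normal mice and 266.5 ± 205 and 401.2 ± 333 in Hyp mice, control before low phosphate.

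With sex and days as terms, the diet difference of Slc27a1 was 1.16 ± 0.34 in normal mice (adjusted p = 0.27) and 0.79 ± 0.24 averaged over genotypes (adjusted p = 0.23), and the averaged value passed without array 10 (0.96 ± 0.20, adjusted p = 0.042). When array set was the block, Slc27a1 rose by 1.16 in normal mice (SE 0.12, adjusted p = 0.00032) and by 0.79 averaged over genotypes (SE 0.08, adjusted p = 0.00028), where the fits called 0.667% and 1.12% of all probe sets. Its genotype difference on control diet was 0.19 ± 0.34 (adjusted p = 0.90) in the fit with sex and days and 0.66 ± 0.12 (adjusted p = 0.047) with the block, and on low phosphate diet it was -0.56 ± 0.34 (adjusted p = 0.65) with sex and days. The block fit on control diet called 0.265% of all probe sets. Of 3 measured adipocyte markers (Adipoq, Fabp4 and Cidec) 2 were bright enough to test and 0 passed for diet in limma. Their summed intensity ran from 525.1 to 1606 in normal mice on control diet, 522.7 to 1733 on low phosphate diet, 503.5 to 1490 in Hyp mice on control diet and 630.7 to 1409 on low phosphate diet, and its part in the Slc27a1 values was not tested.

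**Figure D2:**
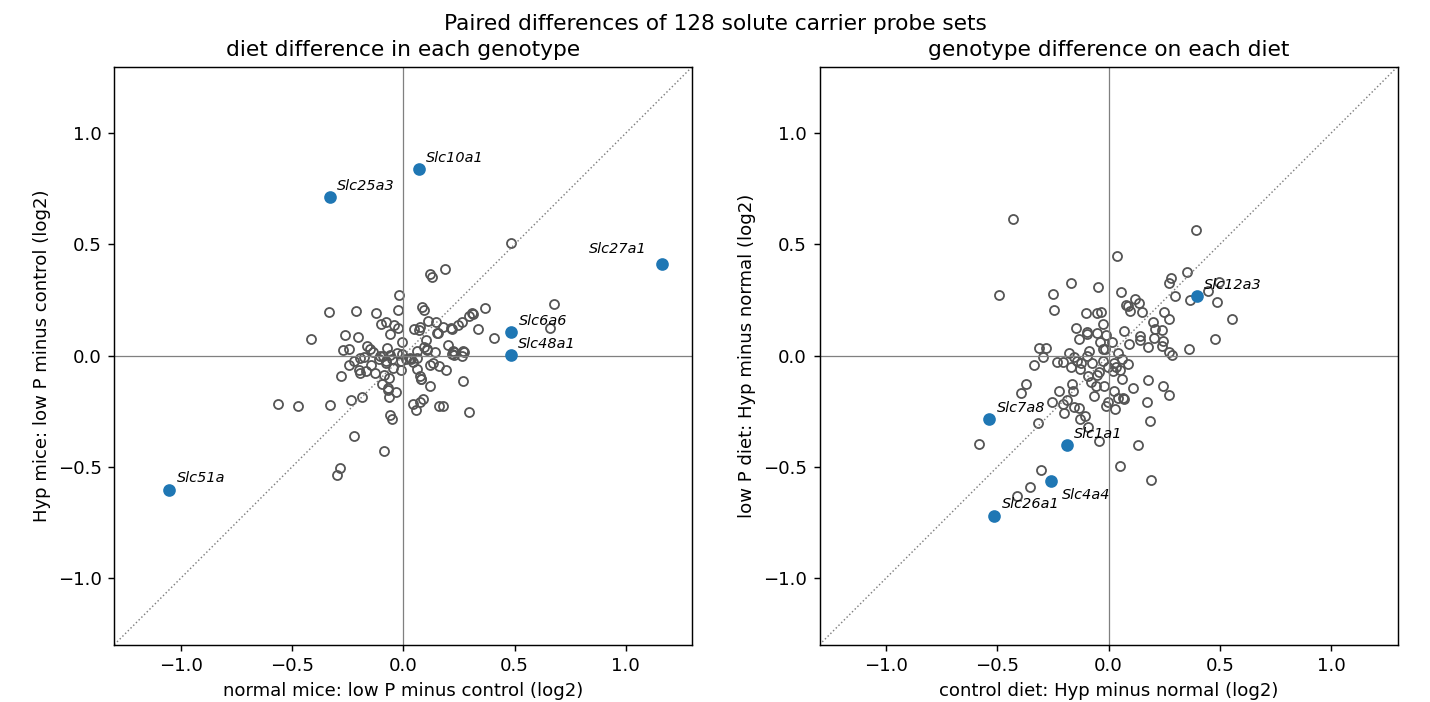
Each circle is 1 of 128 solute carrier probe sets. Left, the log2 diet difference in Hyp mice (vertical) against that in normal mice (horizontal). Right, the log2 genotype difference on low phosphate diet against that on control diet. The dotted line marks equal differences, and named genes are filled: Slc51a lies at -1.05 and -0.60, Slc27a1 at 1.16 and 0.41, and Slc26a1 at -0.51 and -0.72.

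The plots of paired differences set side by side comparisons that share no arrays. The diet difference had the same sign in normal and Hyp mice for 81 of 128 members (63.3%), and for 58.4% of all tested probe sets. The genotype difference had the same sign on both diets for 84 of 128 members (65.6%) and for 64.7% of all. The test of whether the diet acted differently in the 2 genotypes gave 0 of 128 members in limma, against 0.046% of all probe sets, with 7 members and 3.23% of all at an unadjusted p under 0.05. The smallest unadjusted p-values were those of the heme carrier Slc48a1 (-0.48 ± 0.18), of Slc4a1ap (0.49 ± 0.18), a protein that binds the red cell anion exchanger and is no carrier, and of Slc25a3, the mitochondrial phosphate carrier (1.05 ± 0.41), each with an adjusted p of 1.0. Next in either direction, by the brightest probe set of each gene, came Slc10a1 (0.77 ± 0.36), Slc6a6 (-0.38 ± 0.15) and the glycine carrier Slc6a9 (-0.38 ± 0.18). Their adjusted p was the same. Within single groups, Slc4a1ap had a diet difference of -0.42 ± 0.13 in normal mice (adjusted p = 0.31) and a genotype difference of 0.32 ± 0.13 on low phosphate diet (adjusted p = 0.46).

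Outside the ion carrier families 0 members passed for genotype averaged over diets in limma. The 28 probe sets of the amino acid families (1, 3, 6, 7 and 38) had a median averaged genotype difference of 0.00, with 14 of 28 positive and 0 passing. An unadjusted p under 0.05 was found for 9 of the 28, and for 27 of all 128 members (21.1%). The share over all tested probe sets at that level is not given here, so these counts show no excess. Slc1a1, the glutamate and aspartate carrier of the brush border, had the smallest p among the 28. Its brighter probe set gave -0.30 ± 0.08 (adjusted p = 0.11) and its other one -0.41 ± 0.10 (adjusted p = 0.07), which passed under quantile normalization (-0.47 ± 0.11, adjusted p = 0.048). On low phosphate diet the brighter probe set read 852.4, 704.2, 1273.8, 1269.8 and 1035.9 in normal and 649.7, 483.1, 684.4, 1063.1 and 1015.0 in Hyp mice. The Hyp array was lower in 4 of 4 sets there, and the ranges overlapped. Slc38a5, a glutamine carrier, had a genotype difference of 0.48 ± 0.18 on control diet (adjusted p = 0.50), and Slc6a15 had a diet difference of -0.56 ± 0.19 in normal mice (adjusted p = 0.33).

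The heavy chain Slc3a2 and its partner Slc7a8, which together form a basolateral exchanger of neutral amino acids, had genotype differences of -0.33 ± 0.14 (adjusted p = 0.54) and -0.54 ± 0.18 (adjusted p = 0.42) on control diet. Slc7a8 read 1185.1, 957.8, 1051.8, 1660.6 and 954.9 in normal and 948.7, 543.4, 551.4, 990.5 and 965.5 in Hyp mice. The Hyp array was the lower one in 4 of 4 sets, and the ranges overlapped. Slc7a9, the light chain of the brush border cystine carrier, had a smaller value (0.16 ± 0.08, adjusted p = 0.32, averaged over diets), as had its heavy chain Slc3a1 (-0.11 ± 0.08, adjusted p = 0.57), taken up after its values were seen.

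Roles go by family number and not by the solute that each member carries. With the diet, 22 of the 28 probe sets of the amino acid families had a positive averaged difference, with a median of 0.11. In the fatty acid, bile acid, sterol and vitamin families (10, 19, 23, 27 and 46) 11 of 13 had one, with a median of 0.21. The 8 probe sets of the sugar families had a median of -0.05 with 3 positive. The 14 of the ion carrier families had -0.09 with 4, and the 13 of the nucleoside and nucleotide sugar families -0.09 with 3. Against these, 66 of all 128 members and 4602 of all 8695 tested probe sets were positive. Under quantile normalization the first 2 medians were 0.09 and 0.20, with the same counts of positive values. Without arrays 05 to 08 they were 0.05 with 19 positive and 0.14 with 11. Without those arrays the sugar median was 0.07 with 5 positive, so its direction turned. The ion and nucleoside medians were then -0.06 with 4 positive and -0.04 with 5. None of the probe sets of these 5 roles passed the test for diet. The bile acid exporter Slc51a, which fell by 0.83, counts by its family number among the other carriers.

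**Figure D3:**
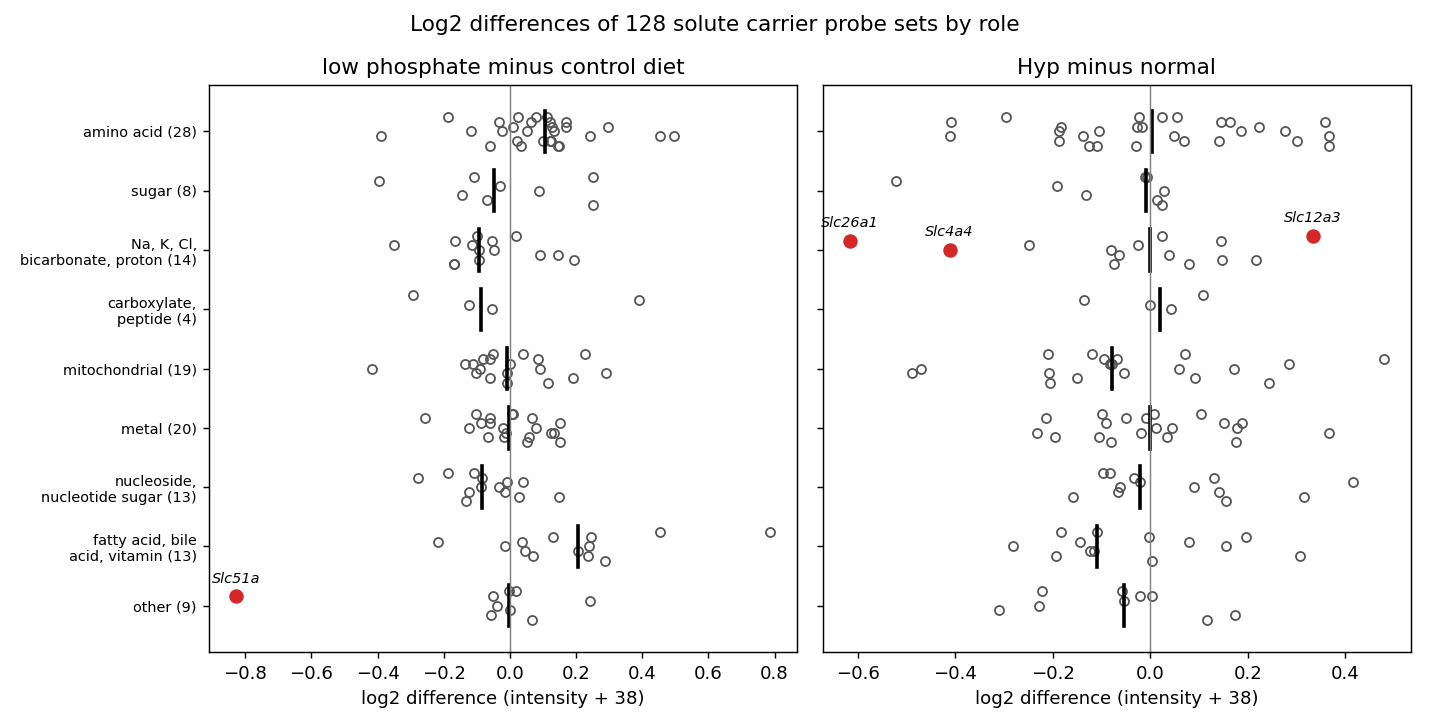
Log2 differences (intensity plus 38) of the 128 probe sets by role, averaged over genotypes for the diet (left) and over diets for genotype (right). Circles are probe sets, black bars are medians of a role, and filled points passed the adjusted threshold. The median for the diet is highest in the fatty acid, bile acid and vitamin families (0.21). The bile acid exporter Slc51a, which passed for the diet as lower, lies by its family number among the other carriers. The points that passed for genotype all lie among the 14 probe sets of the ion carrier families. Those 14 include the binding proteins Slc4a1ap, Slc9a3r1 and Slc9a3r2.

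Of the mitochondrial carrier family (family 25, 19 probe sets of 16 genes), 0 passed for diet or genotype in limma. Slc25a28, the iron carrier mitoferrin 2, had a diet difference of 0.29 ± 0.08 averaged over genotypes (adjusted p = 0.14). The carrier of pyrimidine nucleotides, Slc25a36, had 0.23 ± 0.07 (adjusted p = 0.20). In normal mice Slc25a36 read 2143.9, 2143.7, 2103.1, 2262.0 and 2048.5 on control and 2715.6, 3529.0, 2488.0, 2539.1 and 2412.7 on low phosphate diet. These groups did not overlap, and the difference of 0.34 ± 0.09 had an adjusted p of 0.24. Slc25a25, an exchanger of magnesium-ATP and phosphate, had a diet difference of -0.42 ± 0.13 (adjusted p = 0.27), and its low phosphate array was the lower one in 5 of 5 sets of Hyp mice and 4 of 5 of normal mice. Its averaged genotype difference was -0.47 ± 0.13 (adjusted p = 0.12). Slc25a17, a peroxisomal carrier of cofactors, had an averaged genotype difference of 0.28 ± 0.08 (adjusted p = 0.13), and Slc25a47 had 0.45 ± 0.15 on low phosphate diet (adjusted p = 0.36).

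Some members carry phosphate themselves. Slc34a2, the intestinal and lung type of sodium phosphate cotransporter, was dim, with group means between 87.3 ± 39.4 and 135.2 ± 39.7 (SD, n = 5). Its averaged differences were 0.02 ± 0.17 for diet (adjusted p = 0.989) and -0.22 ± 0.17 for genotype (adjusted p = 0.56). Slc25a3 was as dim and scattered, at 174.4, 291.8, 129.5, 30.5 and 47.5 in normal mice on control diet, and in Hyp mice its diet difference was 0.71 ± 0.29 (adjusted p = 0.998). Slc10a1, the hepatic sodium bile acid cotransporter, was also near the lower limit, and had the largest diet difference in Hyp mice, 0.84 ± 0.26 (adjusted p = 0.76). Its Hyp arrays read 28.8, 175.8, 30.8, 42.3 and 52.3 on control and 85.9, 203.1, 266.0, 49.9 and 125.0 on low phosphate diet, with overlapping ranges.

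Slc17a1, first described as a sodium phosphate cotransporter and known to carry urate, was bright. Its probe sets gave averaged genotype differences of -0.23 ± 0.11 (adjusted p = 0.33) and -0.31 ± 0.09 (adjusted p = 0.14), and the Hyp array was lower in 8 of 8 pairs of the same diet and set for both. With array set as the block the dimmer of them fell by 0.33 (SE 0.07, adjusted p = 0.041), in a fit that called 1.12% of all probe sets. Its diet differences were -0.04 and 0.00. Slc17a1 and Slc34a2 were taken up here after their values were seen.

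The 20 probe sets of the metal carrier families (11, 30, 31, 39 and 41) had medians of -0.00 for both averaged comparisons, with 0 called for either. At an unadjusted p under 0.05 there were 0 of the 20 for either, against 19 of all 128 members for diet and 27 for genotype. The shares over all tested probe sets at that level are not given here. The heme carrier Slc48a1 read 903.2, 606.8, 824.9, 883.0 and 722.8 in normal mice on control and 1223.9, 1132.1, 879.0, 1315.2 and 1033.7 on low phosphate diet. The low phosphate array was the higher one in 5 of 5 sets, 1 low phosphate array lay within the control range, and the difference of 0.48 ± 0.13 had an adjusted p of 0.17. In Hyp mice the group means were 905.7 ± 155 and 899.0 ± 95.4. For the brightest sugar carriers, Slc5a1 and Slc2a8, carriers of the plasma membrane and of intracellular membranes respectively, the averaged diet differences were -0.11 ± 0.08 (adjusted p = 0.74) and 0.25 ± 0.08 (adjusted p = 0.23). The brightest members of 4 further families had averaged genotype and diet differences that did not pass. These were Slc10a3 (0.08 ± 0.08), the monocarboxylate carrier Slc16a7 (0.04 ± 0.07), the zinc carrier Slc30a3 (0.18 ± 0.10) and Slc35b1, which brings ATP into the endoplasmic reticulum (-0.10 ± 0.07). Their averaged diet differences were 0.04 ± 0.08, -0.05 ± 0.07, 0.08 ± 0.10 and -0.11 ± 0.07.

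Sex and days gave many more calls, most of which were not made without arrays 05 to 08. In the fit of all 20 arrays 22 members differed between males and females, 13 higher and 9 lower in males, which is 17.2% against 16.6% of all probe sets (8.67% higher and 7.95% lower). Between 5 and 3 days 56 members differed, 16 higher and 40 lower at 5 days, or 43.8% against 40.9% of all (20.7% higher and 20.2% lower). Without arrays 05 to 08 the counts were 0 and 1 in limma, while 0.219% and 0.299% of all probe sets passed. At an unadjusted p under 0.05 there were 13 and 27 members, and 7.45% and 19.8% of all probe sets. That fit has fewer arrays and no females at 5 days. Its sex difference is therefore one at 3 days only, and its days difference one in males only. Over all arrays, the sex difference is averaged over both durations and the days difference over both sexes. Some differences were about as large without arrays 05 to 08. Neither days nor sex can be told apart from array set, since every set holds 1 duration of feeding and 1 sex.

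Slc25a10, the mitochondrial dicarboxylate carrier that exchanges malate or succinate for phosphate, had the largest sex difference. Its intensity was 949.6 to 4755.7 with a median of 2721 on the 12 male arrays and 435.3 to 3255.2 with a median of 1886 on the 8 female arrays. The ranges overlapped, and the low female values were those of set 05 to 08 (570.7 ± 190, SD, n = 4). At 3 days the females reached 3082 ± 151 and the males 3628 ± 251. The male minus female difference was 1.01 ± 0.21 (adjusted p = 0.0044) over all arrays and 0.23 ± 0.33 (adjusted p = 0.957) without set 05 to 08.

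The values of Slc39a7, a zinc carrier of the endoplasmic reticulum, had the same shape. Females at 5 days had 280.8 ± 35.8 (SD, n = 4) and females at 3 days 961.6 ± 88.3, while the males had 615.4 ± 198 (n = 8) and 937.4 ± 130 (n = 4). Its sex difference was 0.47 ± 0.13 over all arrays and, at 3 days only, -0.04 ± 0.22 without set 05 to 08, so its direction turned. Slc38a10, Slc6a2 and Slc39a4 also turned (0.33, -0.66 and -0.50 over all arrays, -0.10, 0.12 and 0.05 without the set). The remaining members named higher in males were Slc2a4, Slc17a1, Slc12a7, Slc26a1 and the scaffold protein Slc9a3r1, at 0.34 to 0.40. In that order they were at 0.04, 0.24, 0.08, 0.59 and 0.15 without the set. Members lower in males included Slc10a1 (-0.71 ± 0.19, adjusted p = 0.017), the choline carrier Slc44a1 (-0.36 ± 0.12, adjusted p = 0.048), the ascorbate carrier Slc23a1 (-0.34 ± 0.10, adjusted p = 0.029) and Slc6a6 (-0.26 ± 0.08, adjusted p = 0.030). Without set 05 to 08 these were -0.46, -0.09, -0.20 and -0.09.

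A few sex differences were as large or larger without that set, though none passed there. Slc26a1 ran from 411.9 to 1139.3 in males (median 744.9) and from 398.2 to 829.5 in females (median 583.3). The male minus female difference was 0.35 ± 0.08 (adjusted p = 0.0071) over all arrays and 0.59 ± 0.12 (adjusted p = 0.086) without arrays 05 to 08. For Slc6a15, a carrier of branched chain amino acids and proline, the male arrays ran from 235.2 to 582.8 (median 387.1) and the female arrays from 406.6 to 974.5 (median 634.9). Its differences were -0.62 ± 0.14 and -0.67 ± 0.20, the latter with an adjusted p of 0.33. Slc6a18, a neutral amino acid carrier of the proximal tubule brush border, gave -0.45 ± 0.13 and -0.58 ± 0.15 (adjusted p = 0.21 without the set).

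Between 5 and 3 days the largest fall was that of Slc27a1 (-1.66 ± 0.25, adjusted p = 0.00022), followed by Slc25a10 (-1.63 ± 0.21), Slc39a7 (-1.14 ± 0.13) and the glucose carrier Slc2a1 (-0.97 ± 0.21). The largest rise was that of the brighter probe set of Slc39a4, the zinc carrier ZIP4 (0.83 ± 0.12, adjusted p = 0.00019), whose dimmer probe set gave -0.33 (adjusted p = 0.18), so that the pair disagreed. Without set 05 to 08 these values were -1.53, -0.85, -0.63, -0.59 and 0.28, and none of the 5 passed. Also higher at 5 days were Slc6a2 (0.66 ± 0.17), Slc38a5 (0.58 ± 0.13), Slc10a1 (0.50 ± 0.19), the serotonin carrier Slc6a4 (0.43 ± 0.11), the cationic amino acid carrier Slc7a2 (0.42 ± 0.10), Slc6a6 (0.34 ± 0.08) and Slc44a4 (0.34 ± 0.08), with adjusted p from 0.0026 to 0.045. Slc10a1, of mean intensity 105, lay between 0.25 and 0.64 over the alternatives other than single arrays left out. Its call was lost without the set, with an offset of 1, under quantile normalization, without the filter and with trended and robust moderation. Without the set Slc38a5 was at 0.52, Slc44a4 at 0.30, Slc7a2 at 0.23, Slc6a4 at 0.18, Slc6a6 at 0.16 and Slc6a2 at -0.12. Also lower were Slc1a1 (-0.70 ± 0.09), Slc35e4 (-0.66 ± 0.16), Slc7a8 (-0.65 ± 0.13) and Slc38a10 (-0.63 ± 0.10), which were at -0.43, -0.29, -0.20 and -0.20 without it. Their adjusted p over all arrays ran from 5.5e-05 to 0.0038. Among the 8 male arrays at 5 days, Slc27a1 read 93.0, 259.6, 186.1 and 270.7 on set 01 to 04, 57.9 and 59.2 on arrays 09 and 10, and 208.7 and 606.6 on arrays 19 and 20. Arrays 09 and 10 were the lowest, and array 20 lay within the range of the 3-day arrays.

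The single member that passed for days without set 05 to 08 was Slc4a4. On the 4 male arrays at 3 days it read 6023.2, 6048.4, 3879.8 and 4116.9, and on the 8 male arrays at 5 days it read between 1922.1 and 3747.4. The male arrays of the 2 durations did not overlap. The difference of Slc4a4 in this fit was -0.88 ± 0.11 (adjusted p = 0.0029), and over all 20 arrays the difference was -0.47 ± 0.09 (adjusted p = 0.001). The 3-day male arrays are all of set 11 to 14.

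**Figure D4:**
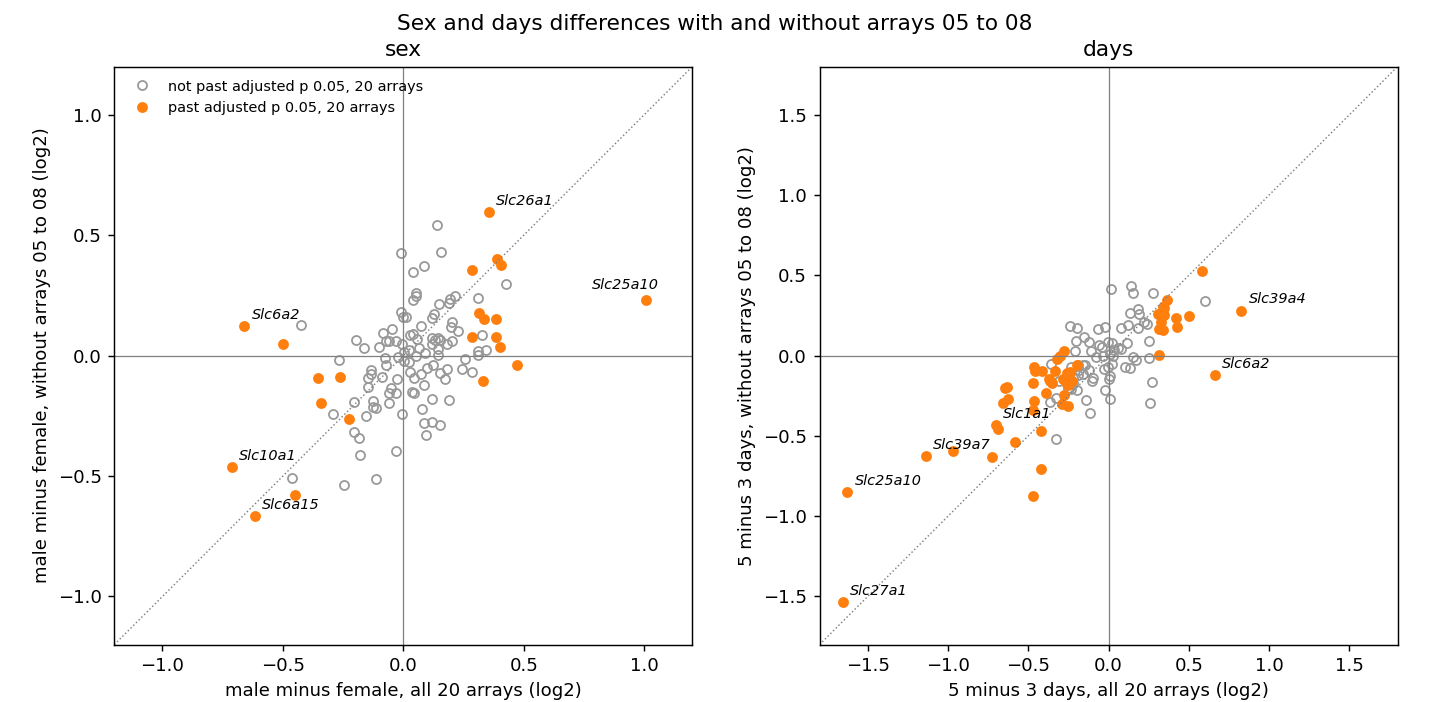
Log2 differences of 128 solute carrier probe sets for sex (left, male minus female) and days (right, 5 minus 3), over all 20 arrays (horizontal) and without arrays 05 to 08 (vertical). The vertical values compare sex at 3 days only and days in males only. Filled points passed the adjusted threshold over 20 arrays (22 for sex, 56 for days), and the dotted line marks equal values. Slc25a10 goes from 1.01 to 0.23 for sex, and Slc26a1 from 0.35 to 0.59.

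Of the members, 15 genes had more than 1 probe set, and some of these differed in sign. Slc23a3, an orphan member of the ascorbate family, had averaged genotype differences of -0.19 and 0.31 (adjusted p = 0.51 and 0.21). For sex, opposite signs came from the iron carrier Slc11a2 (0.31 with an adjusted p of 0.043, and -0.29 with 0.058), from Slc39a4 (-0.50 and 0.20) and from Slc35e1 (0.34 and -0.15). For days they came from Slc39a4, Slc6a4 (0.43 and -0.25), the folate carrier Slc19a1 (-0.20 and 0.36) and Slc11a2 (-0.11 and 0.31). Both Slc1a1 probe sets were lower at 5 than at 3 days, with differences of -0.70 and -0.69.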

How the data were processed

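The deposited table holds 1 linear intensity per probe set and array, for 12488 probe sets (66 of them controls) on 20 arrays. From the values, the authors had scaled each array's intensity to a mean of 500.254 to 500.309 after trimming 2% at either end, and the array medians lay between 185.75 and 228.15. The software behind the intensities was not given in the sources used here. No sample column was left unused. Of the 12422 other probe sets, 10833 name 1 gene in the platform annotation, 396 several and 1193 none.

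An offset of 38 (the 20th percentile) was added before log2, and the 8695 probe sets with a mean of 79.4 or more (the 30th percentile as the minimum) were fitted with limma 3.58.1 in R 4.3.3, with a term for each of the 4 groups and for sex and days. This left 13 residual degrees of freedom. Benjamini-Hochberg adjustment ran over all 8695 in each comparison. The fit was tested on simulated data. The number of arrays limits the precision.

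Diet, genotype, their interaction, sex and days were compared. The text names every member past the threshold for diet, genotype or interaction (at most 10 a direction, filled to 3 by the smallest unadjusted p), the 8 largest called a direction for sex and days, and the brightest member of each family with 3 or more genes. Where a gene has several probe sets, the brightest stands for it. Others are said to be chosen after their values were seen. Members and lists were chosen with earlier results of these data known. Alternatives were the offset, quantile normalization, no filter, trended and robust moderation, no terms for sex and days, the array set as a block, arrays 05 to 08 left out, each array left out, and a member minimum of 50 or 200. Adding back the left-out genes, leaving out Slc-named binding proteins, and leaving out arrays 09, 10, 19 and 20 were chosen after seeing the data. Promoters came from RefSeq (GRCm38.p6), where 92 of 113 genes matched.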

Additional observations from a re-analysis of the deposited data

Results flagged for a closer look

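In 10 of 84 groups of 5 arrays, examined over 21 named genes, 1 array lay far from the other 4, where chance gives about 1 in 20 for like arrays. Each group mixes sexes and days, so that a lone array can be the only one of its kind in the group. Of the 10 lone values, 6 were read on arrays of set 05 to 08. The bile acid carrier Slc10a1 read 213.9 on array 06 (the other normal low phosphate arrays 51.6 to 97.6) and 175.8 on array 07 (the other Hyp control arrays 28.8 to 52.3). Slc6a6 read 7811.6 on array 06 (others 4308.5 to 5138.9) and 6153.0 on array 08 (others 3921.8 to 4502.8). Slc25a36 read 3529.0 on array 06 (others 2412.7 to 2715.6), and Slc48a1 read 633.6 on array 07 (others 945.8 to 1002.6). Outside that set, Slc25a17 read 1787.3 on array 11 (others 2434.6 to 2634.7) and Slc4a4 read 6048.4 on array 12 (others 3124.4 to 3747.4). On array 15, Slc3a2 read 5803.3 (others 4264.1 to 4675.8) and Slc4a3 read 284.0 (others 346.1 to 368.1).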

How the results depend on the processing

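The labels give no replicate numbers shared between groups, so the array set served as the block. Of 2008 values of 74 named differences under alternatives, 1852 kept direction and side of the threshold, 142 lost the call, 9 gained it and 5 reversed. The 5 reversed without arrays 05 to 08, where sex is compared at 3 days only and days in males only. They were Slc39a7 (-0.04), Slc38a10 (-0.10), Slc6a2 (0.12) and Slc39a4 (0.05) for sex, and Slc6a2 (-0.12) for days. There the members called for sex went from 22 to 0 and for days from 56 to 1, among fewer arrays.

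With trended and robust moderation the counts were 1 for diet in normal mice, 1 for genotype on control diet and 2 on low phosphate diet. With the array set as a block they were 2 for diet in normal mice, 3 for diet averaged over genotypes and 1 for genotype on control diet. Without terms for sex and days they were 0 for genotype on low phosphate diet, 0 for the averaged diet and 1 for the averaged genotype comparison. The averaged diet count was 0 without the filter, and the count for diet in normal mice was 1 without arrays 09, 10, 19 and 20. With the left-out genes added back the counts were 1 for diet in Hyp mice, 3 for the averaged diet, 2 and 2 for genotype on control and low phosphate diet and 6 for the averaged genotype comparison. The causes were not tested.

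Leaving out 1 array at a time gave 0 to 1 for diet in normal mice (1 without array 06), 0 to 0 in Hyp mice and 0 to 2 averaged (0 without any 1 of 02, 04, 08, 09 and 11 to 20, 2 without 10). Genotype gave 0 to 1 on control diet (1 without 18), 1 to 2 on low phosphate diet (2 without 07) and 1 to 3 averaged (1 without 02, 12, 13 or 15). The interaction gave 0 to 0, sex 13 to 25 (14, 14, 14 and 13 without 12, 14, 15 and 16) and days 45 to 59.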
